A study of Mus musculus with 35 samples.

Results

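The hemogenic endothelium (HE) and the endothelial cells (EC) of the mouse embryo were compared by chromatin accessibility at 2 days, and the quantity described here is the change of their difference, that is E9.5 HE minus E9.5 EC, less E8.5 HE minus E8.5 EC. A negative value means that HE stood lower against EC at E9.5 than at E8.5, and a positive value that it stood higher. The comparison took 16 of the 35 ATAC-seq libraries of the series, 4 in each of the groups E9.5 HE, E9.5 EC, E8.5 HE and E8.5 EC. It covered every region of the deposited table, 76018 in all, of which 67108 passed the filter on low counts and were tested. Each library came from a pool of 1500 sorted cells taken from embryos carrying the 23GFP transgene, which all groups share. The 23GFP line is known from earlier work as a reporter in which an enhancer of Runx1 drives green fluorescent protein. How that reporter or any surface marker was used in the sort, the strain and the number of embryos per pool are not stated in the labels. The tissue is labelled PAS+VU, and the tissue label of the E9.5 libraries names E8.5, so the day of every library was taken from its title. Biological replicates are stated for the series, but nothing says that the libraries of a group came from separate litters. The p-values rest on a spread between libraries that was estimated over all 9 groups of the series, beyond the 16 libraries compared.

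In the endothelial-to-hematopoietic transition, a subset of the endothelium lining the embryonic arteries becomes hemogenic, rounds up and releases blood progenitors. Hemogenic cells share most of their chromatin landscape with neighbouring endothelial cells and are set apart by the transcription factor Runx1, which turns endothelial genes down and blood genes on. ATAC-seq counts the places where the Tn5 transposase can cut, so a region with more reads is more open or is open in more of the cells. In pools, fewer open cells and less opening per cell cannot be told apart.

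Total counts in the regions ran from 1839721 to 7415315 in E9.5 HE, from 1170513 to 7283508 in E9.5 EC, from 1502905 to 5733154 in E8.5 HE and from 1004036 to 2788837 in E8.5 EC. At E9.5 libraries 1 and 2 of both populations were deeper than libraries 3 and 4, and at E8.5 libraries 3 and 4 were the deeper ones. The share of counts in the top 10% of regions by level was 59.2 ± 2.15% in E9.5 HE and 60.1 ± 0.95% in E9.5 EC, against 54.0 ± 1.88% in E8.5 HE and 52.2 ± 2.62% in E8.5 EC (SD, n = 4 each), and the days did not overlap. E9.5 EC libraries 3 and 4 and E9.5 HE library 4 stood apart by 6470, 7280 and 9126 counts in the region chrX:103380576-103383382. Regions are named by their mm9 position as the deposited table writes it. No annotation or sequence of that build was used, so gene names are not given and the labelled cell types were not checked against marker genes.

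The difference between HE and EC changed between the days at 1004 regions, 1.5% of those tested (edgeR's quasi-likelihood test, Benjamini-Hochberg adjusted p of 0.05 over all regions tested). HE stood lower against EC at E9.5 than at E8.5 at 815 of them (1.21%) and higher at 189 (0.282%). The lower regions had a median change of -2.11 (range -5.88 to -1.20, log2) and the higher ones of 3.31 (1.29 to 9.58), beside a median of 0.03 over all regions tested. Leaving out E8.5 EC library 1 or 2, E8.5 HE library 1 or 2, E9.5 EC library 2, or E9.5 HE library 3 or 4 lowered the 1004 calls to 482, 437, 630, 563, 626, 530 and 505, taken in that order. Without the 3 libraries high in the chromosome X region 44 calls were made, 38 lower and 6 higher.

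The depth of a library went with its number on both days, and the comparison was repeated with only the first or the last pair of libraries of a day. The calls were 20 without E9.5 libraries 1 and 2, 3 without E9.5 libraries 3 and 4, 6 without E8.5 libraries 1 and 2 and 274 without E8.5 libraries 3 and 4, with both populations left out together. Between same-numbered libraries, the median log2 difference of HE from EC over the 815 lower regions was -0.99, -0.88, -1.24 and -1.16 at E9.5 and 1.20, 1.27, 0.69 and 0.82 at E8.5, for numbers 1 to 4. Over the 189 higher regions it was 1.29, 1.39, 1.55 and 1.69 at E9.5 and -0.89, -1.143, -0.68 and -0.82 at E8.5. These regions were chosen on the same libraries, so the signs are a description.

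**Figure D1:**
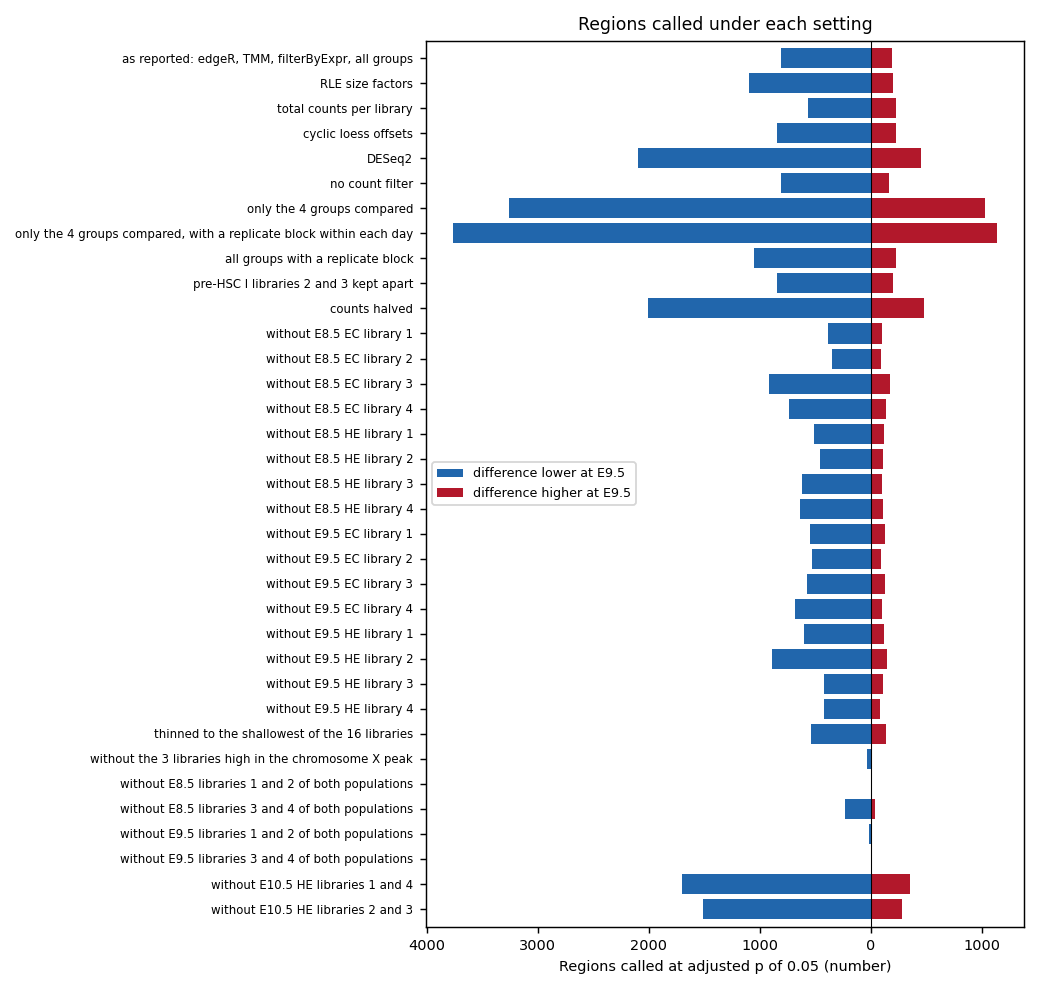
Number of regions called under each setting (horizontal axis, adjusted p of 0.05), with regions whose difference was lower at E9.5 drawn to the left in blue and those whose difference was higher to the right in red. The reported setting gave 815 and 189, and the settings that leave out a pair of libraries in both populations of a day gave 3 to 274 calls in all.

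At most of the 815 lower regions the endothelial cells were the group that passed its own test over the days. In counts of regions, a population is said to rise, fall or move where that test passed. A test not passed does not show that a population stayed still. EC rose over the days at 633 of them (77.7%, against 6.49% of all regions tested), while HE fell at 113 (13.9%, against 1.24%) and rose at 4 (against 0.893%). By region, 609 rose in EC alone (74.7%, against 6.18% of all tested), 93 fell in HE alone (11.4%, against 0.84%) and 20 rose in EC and fell in HE. Those 20 were all the regions of that kind among the 67108 tested. The change of the difference is the HE change less the EC change. Opposite moves add up in it, so such regions were almost bound to be called. Another 4 rose in both populations (0.491%, against 0.279%), and 89 passed in neither (10.9%, against 87.5%). Without E8.5 EC library 1 or 2, E8.5 HE library 1 or 2, E9.5 EC library 1, or E9.5 HE library 1, 3 or 4, taken in that order, HE fell at 55, 59, 38, 34, 71, 72, 48 and 35 of the regions then called lower. EC rose at 76.1% to 87.0% of the lower calls whichever of the 16 libraries was left out, and HE fell at 7.39% to 16.9%. HE fell at 23.7% of the lower calls with DESeq2, 23.3% with total counts, 20.9% with cyclic loess scaling and 26.6% with halved counts. EC rose there at 67.4%, 75.3%, 73.8% and 71.4%, in that order. Without the count filter HE fell at 11.9% and EC rose at 79.6%. The median log2 change from E8.5 to E9.5 was -0.56 in HE and 1.57 in EC over the 815, beside -0.02 and -0.07 over all regions. These contrasts share libraries with the one that chose the regions, so the counts describe the regions and test nothing further.

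Set against each other within a day, HE stood below EC at E9.5 and above it at E8.5 in the median of these regions, but few regions passed on both days. At E9.5 HE was lower than EC at 357 of the 815 (43.8%, against 1.21% of all tested), with a median of -1.11. At E8.5 HE was higher than EC at 231 (28.3%, against 1.31%), with a median of 1.02. Only 14 regions passed both tests, and they were all the regions that did so among those tested. Opposite differences add up in the change of the difference, so that was almost bound to be. At 241 neither day passed, and 1 region passed as higher in HE on both days. Levels are given as CPM, the count in a region scaled by each library's TMM-adjusted size. All 4 E9.5 HE libraries lay below all 4 E9.5 EC libraries at 624 of the 815 (76.6%, against 6.85% of all tested), and all 4 E8.5 HE libraries above all 4 E8.5 EC libraries at 497 (61.0%, against 7.64%). Both held at 317 (38.9%, against 0.87%). The regions were chosen on these same libraries, so the shares in this paragraph describe them and test nothing further.

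**Figure D2:**
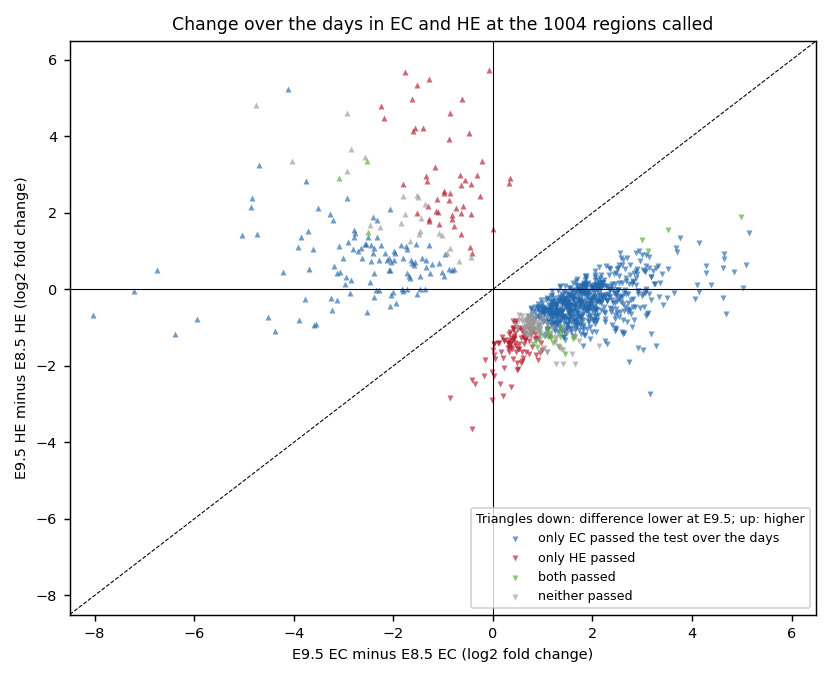
Log2 fold change from E8.5 to E9.5 in EC (horizontal) and in HE (vertical) at the 1004 regions called, one triangle per region, pointing down where the difference was lower at E9.5 and up where it was higher, coloured by which population passed its own test. Most of the 815 lower regions lie right of the vertical axis (807) and below the horizontal one (675), with median changes of -0.56 in HE and 1.57 in EC.

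The 12 leading lower regions, by the smallest adjusted p, changed by -3.23 to -2.09 (log2) with adjusted p of 0.000276 to 0.000441. EC rose over the days at all 12. HE fell at 2 of them and rose at 1. HE was lower than EC at E9.5 at 10 of the 12 and higher at E8.5 at 8. Libraries are given below in the order of their numbers, 1 to 4, in CPM.

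The first was chr2:135518113-135519379, 1266 bp long. Its E9.5 libraries held 29.9, 31.4, 26.8 and 26.6 CPM in HE, against 89.4, 75.7, 106 and 89.7 CPM in EC. Its E8.5 libraries held 48.8, 56.8, 47.8 and 39.9 CPM in HE, against 33.2, 12.2, 35.6 and 27.6 CPM in EC. HE lay below EC at E9.5 and above it at E8.5 without overlap, and the days did not overlap in either population, with EC higher and HE lower at E9.5. The change of the difference was -2.43 ± 0.36 (log2, SE; adjusted p = 0.000276), made of 1.69 ± 0.26 in EC (adjusted p = 7.17e-06) and -0.74 ± 0.25 in HE (adjusted p = 0.103).

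At chr7:105720479-105722469 EC crossed HE between the days. The values were 86.4, 112, 83.3 and 111 CPM in E9.5 HE, against 205, 219, 214 and 214 CPM in E9.5 EC. They were 96.4, 114, 89.5 and 102 CPM in E8.5 HE, against 28.9, 28.8, 46.95 and 41.1 CPM in E8.5 EC. The HE libraries of the days overlapped, with a change of -0.03 ± 0.27 (log2, SE; adjusted p = 0.977), while EC rose by 2.52 ± 0.29 (log2, SE). HE passed as lower at E9.5 and as higher at E8.5, with differences of -1.12 ± 0.27 and 1.43 ± 0.29 (log2, SE).

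Similarly, chr9:8558439-8559379 had 26.7, 37.5, 30.8 and 27.01 CPM in E9.5 HE, against 67.98, 66.9, 106 and 64.7 CPM in E9.5 EC. It had 42.2, 57.4, 39.4 and 34.02 CPM in E8.5 HE, against 19.5, 17.4, 14.01 and 9.93 CPM in E8.5 EC. E9.5 EC library 3 stood above the others of its group, and the populations did not overlap on either day. The difference changed by -2.84 ± 0.44 (log2, SE), with 2.35 ± 0.33 in EC and -0.48 ± 0.30 in HE.

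The region chr8:131118518-131119275 was low in E8.5 EC library 1. It gave 14.8, 11.9, 28.5 and 12.5 CPM in E9.5 HE, against 68.8, 57.8, 68.03 and 61.5 CPM in E9.5 EC. E8.5 HE gave 21.1, 20.9, 22.4 and 20.5 CPM, against 1.44, 12.2, 18.2 and 8.51 CPM in E8.5 EC. E8.5 HE was the most even group, E9.5 HE library 3 was high among the E9.5 HE libraries, and EC rose by 2.61 ± 0.34 (log2, SE; adjusted p = 3.96e-07). The change of the difference was -2.98 ± 0.47 (log2, SE; adjusted p = 0.00043).

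The same order, with E9.5 EC highest and E8.5 EC lowest, held at chr15:61384418-61385117. E9.5 HE had 17.7 ± 3.63 CPM and E9.5 EC 56.2 ± 10.2 CPM, against 30.9 ± 6.29 CPM in E8.5 HE and 11.2 ± 4.73 CPM in E8.5 EC (SD, n = 4 each). The difference changed by -3.03 ± 0.49 (log2, SE), and EC rose by 2.26 ± 0.36. At chr5:149976189-149977107 the means were 30.8 ± 11.3 CPM in E9.5 HE, 77.0 ± 16.01 CPM in E9.5 EC, 40.4 ± 10.1 CPM in E8.5 HE and 14.1 ± 4.25 CPM in E8.5 EC (SD, n = 4 each). EC rose by 2.45 ± 0.34 (log2, SE), the HE days overlapped, and the difference changed by -2.81 ± 0.45.

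At chr9:14412846-14413920 E9.5 HE averaged 29.7 ± 3.4 CPM and E9.5 EC 83.6 ± 8.67 CPM, against 49.2 ± 5.35 CPM in E8.5 HE and 21.4 ± 4.92 CPM in E8.5 EC (SD, n = 4 each). EC rose by 1.94 ± 0.32 (log2, SE), and HE passed as lower at E9.5 and higher at E8.5. chr3:109054331-109055307 had the largest change of the 12, -3.23 ± 0.53 (log2, SE), with 17.5 ± 2.49 CPM in E9.5 HE and 60.4 ± 8.15 CPM in E9.5 EC, against 30.0 ± 6.28 CPM in E8.5 HE and 10.01 ± 7.05 CPM in E8.5 EC (SD, n = 4 each). Its E8.5 EC libraries were uneven, at 4.33, 3.49, 15.9 and 16.3 CPM. At chr1:51827041-51827928 E9.5 HE had 35.02 ± 4.16 CPM and E9.5 EC 64.8 ± 8.11 CPM, against 36.2 ± 10.4 CPM in E8.5 HE and 8.53 ± 4.31 CPM in E8.5 EC (SD, n = 4 each). EC rose there by 2.91 ± 0.37 (log2, SE), HE changed by -0.04 ± 0.32, and the E9.5 difference of -0.88 ± 0.32 did not pass (adjusted p = 0.141).

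Both populations moved at the other 3 of the 12. At chr13:107549996-107551791 they crossed. E9.5 HE had 33.9, 48.2, 47.9 and 34.8 CPM, against 146, 137, 120.1 and 125 CPM in E9.5 EC. E8.5 HE had 145, 124, 93.4 and 86.3 CPM, against 64.9, 65.4, 97.7 and 74.1 CPM in E8.5 EC. HE fell by 1.44 ± 0.26 and EC rose by 0.80 ± 0.26 (log2, SE; adjusted p = 0.000536 and 0.031), so the HE change was the larger. The E8.5 HE and EC libraries overlapped, since E8.5 EC library 3 was above E8.5 HE libraries 3 and 4.

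At chr5:64546786-64548009 both populations moved by about the same size. It had 41.3, 38.6, 36.5 and 38.4 CPM in E9.5 HE, against 97.3, 88.5, 90.1 and 87.9 CPM in E9.5 EC. It had 100.1, 75.7, 86.6 and 77.9 CPM in E8.5 HE, against 42.6, 38.3, 54.1 and 51.04 CPM in E8.5 EC. No pair of groups compared overlapped, and HE fell by 1.13 ± 0.24 while EC rose by 0.95 ± 0.24 (log2, SE; adjusted p = 0.00405 and 0.00602). Next among the 20 with opposite moves, chr3:65664923-65665860, had 16.4 ± 3.12 CPM in E9.5 HE and 49.6 ± 12.4 CPM in E9.5 EC, against 38.5 ± 2.24 CPM in E8.5 HE and 19.5 ± 8.51 CPM in E8.5 EC (SD, n = 4 each). HE fell by 1.25 ± 0.30 there and EC rose by 1.34 ± 0.31 (log2, SE).

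The region chr10:74826194-74828242 opened in both populations. It held 122, 121, 98.7 and 121 CPM in E9.5 HE, against 144, 103, 127 and 132 CPM in E9.5 EC. It held 48.2, 54.8, 57.1 and 68.4 CPM in E8.5 HE, against 12.99, 12.2, 12.9 and 19.1 CPM in E8.5 EC. The populations overlapped at E9.5 and stood well apart at E8.5, where HE was higher by 1.97 ± 0.26 (log2, SE; adjusted p = 1.95e-06). HE rose by 1.01 ± 0.23 and EC by 3.11 ± 0.26 over the days (log2, SE; adjusted p = 0.00813 and 5.25e-13), and the difference changed by -2.10 ± 0.34. The populations also overlapped at E10.5, with 113 ± 35.5 CPM in E10.5 HE and 123 ± 32.5 CPM in E10.5 EC (SD, n = 4 each).

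Among the other 3 regions that rose in both populations, chr15:25718931-25719837 had 54.4 ± 11.4 CPM in E9.5 HE and 37.3 ± 12.6 CPM in E9.5 EC, against 18.03 ± 4.73 CPM in E8.5 HE and 3.02 ± 2.2 CPM in E8.5 EC (SD, n = 4 each). At chr6:4868431-4868885 the E8.5 EC libraries held 6 counts in all, and the levels were 13.8 ± 3.00 CPM in E9.5 HE and 26.04 ± 8.66 CPM in E9.5 EC, against 3.99 ± 2.27 CPM in E8.5 HE and 0.802 ± 0.716 CPM in E8.5 EC (SD, n = 4 each). Each of these 2 calls was lost on leaving out any of 9 of the 16 libraries, singly.

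**Figure D3:**
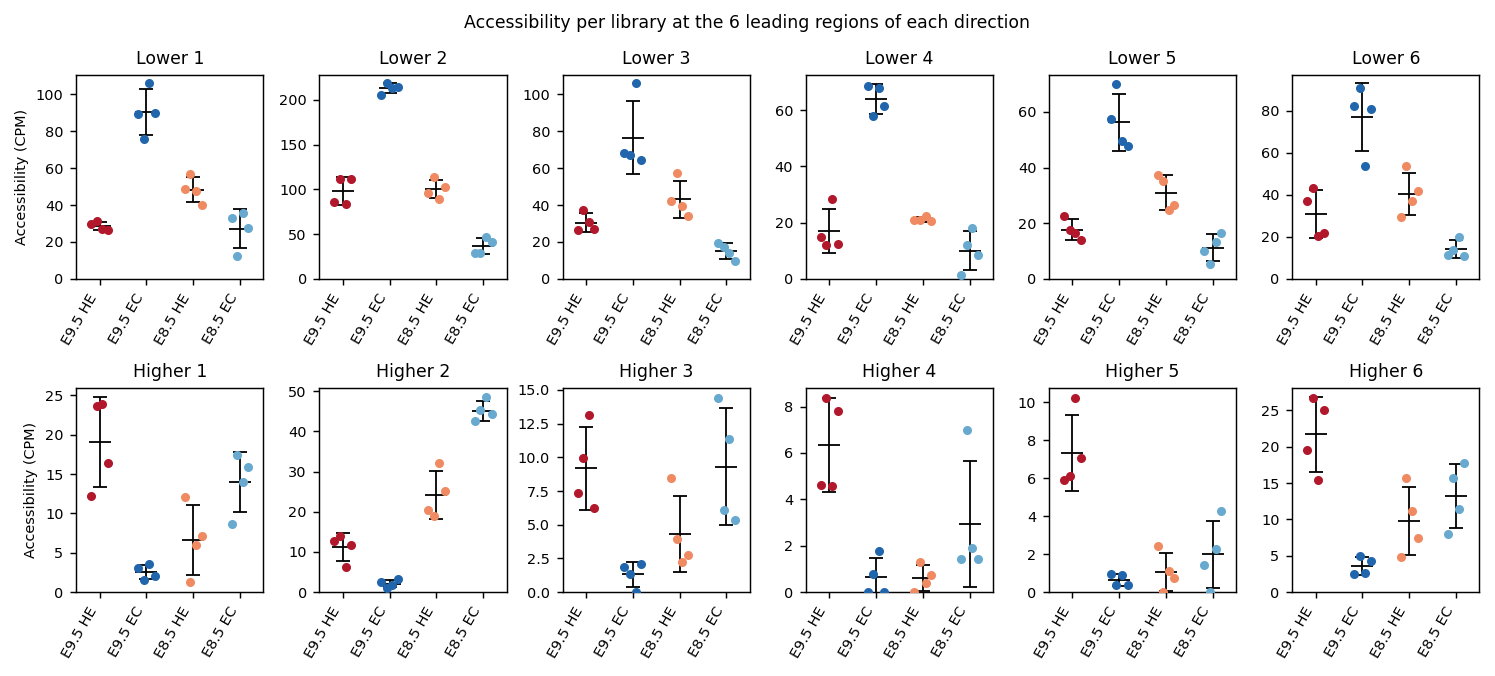
Accessibility in CPM of each library (points), with the mean and SD (bars, n = 4), in E9.5 HE, E9.5 EC, E8.5 HE and E8.5 EC at the 6 leading regions with a lower (top) and a higher (bottom) difference at E9.5, numbered by their rank. In the top row E9.5 EC has the highest mean and E8.5 EC the lowest, while in 5 of the 6 bottom panels E9.5 EC has the lowest mean.

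HE alone passed over the days at 93 of the 815 lower regions. The leading one was chr9:115574048-115575371, with 28.03, 33.1, 23.9 and 29.8 CPM in E9.5 HE, against 55.6, 66.2, 48.6 and 49.2 CPM in E9.5 EC. E8.5 HE had 103, 104, 101.0 and 102 CPM, against 18.8, 40.1, 45.8 and 59.5 CPM in E8.5 EC. The 4 E8.5 HE libraries were nearly identical and lay above all others, while the EC libraries of the days overlapped. HE fell by 1.82 ± 0.27 (log2, SE; adjusted p = 2.94e-05) and EC changed by 0.40 ± 0.27 (adjusted p = 0.35).

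The second, chr6:129185527-129186450, changed in HE by -2.48 ± 0.38 (log2, SE; adjusted p = 4.23e-05). It had 6.47, 10.3, 3.42 and 10.6 CPM in E9.5 HE and 40.99, 75.05, 30.5 and 33.8 CPM in E8.5 HE. EC had 31.8, 23.8, 24.7 and 26.7 CPM at E9.5 and 14.4, 31.4, 28.02 and 23.8 CPM at E8.5, and its days overlapped. E8.5 HE library 2 was high within its group. The third, chr13:21998233-22000294, averaged 27.3 ± 8.52 CPM in E9.5 HE and 66.4 ± 10.4 CPM in E9.5 EC, against 69.8 ± 4.99 CPM in E8.5 HE and 41.4 ± 16.4 CPM in E8.5 EC (SD, n = 4 each), and HE fell by 1.32 ± 0.28 (log2, SE).

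At 89 lower regions the difference changed although neither population passed over the days. At chr13:89678302-89681013 E9.5 HE had 71.5 ± 12.6 CPM and E9.5 EC 138 ± 18.9 CPM, against 117 ± 12.3 CPM in E8.5 HE and 92.6 ± 7.65 CPM in E8.5 EC (SD, n = 4 each). The changes of -0.70 ± 0.21 in HE and 0.58 ± 0.21 in EC (log2, SE) had adjusted p of 0.057 and 0.0584, and the difference changed by -1.28 ± 0.29 (adjusted p = 0.0134). The same held at chr4:144493095-144494525, with -0.86 ± 0.26 in HE, 0.74 ± 0.26 in EC and -1.60 ± 0.37 for the difference (log2, SE), and at chr9:75492935-75493799, with -1.19 ± 0.37, 1.08 ± 0.38 and -2.27 ± 0.53.

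EC was also the population that passed most often over the days at the 189 regions where HE stood higher against EC at E9.5. EC fell over the days at 115 of them (60.9%, against 4.59% of all tested), and HE rose at 53 (28.0%, against 0.893%). By region, 112 fell in EC alone (59.3%, against 4.21%), 50 rose in HE alone (26.5%, against 0.61%) and 24 passed in neither population (12.7%, against 87.5%). The 3 that did both were all the regions of that kind among those tested. That was almost bound to be, as opposite moves add up. The median log2 change over the days was 1.18 in HE and -1.84 in EC. Passed or not, the HE change was positive at 165 of the 189 (87.3%, against 48.8% of all tested). The EC change was negative at 186 (98.4%, against 53.1%). HE was higher than EC at E9.5 at 101 regions (53.4%, against 1.36%; median 2.05), and lower at E8.5 at 18 (9.52%, against 0.13%; median -1.11). No region passed both of those tests. All 4 E9.5 HE libraries lay above all 4 E9.5 EC libraries at 132 of the 189 (69.8%, against 6.86%), and all 4 E8.5 HE libraries below all 4 E8.5 EC libraries at 76 (40.2%, against 4.31%). Both held at 34 (17.99%, against 0.176%). These regions too were chosen on the same libraries, so the shares are a description.

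These regions had fewer reads than the lower regions. Their median level over the 16 libraries was 5.79 CPM, against 28.4 CPM for the lower regions and 5.50 CPM for all tested. In 33 of the 189, at least 1 of the 4 groups held 3 counts or fewer in its 4 libraries together, against 11 of the 815 lower regions, that is 17.5% against 1.35%, and 2.7% of all tested. A group was at 0 in 15 of the 189. With groups at 0 set to the floor of 3 counts over the group, the median change was 3.29, against 3.31 as fitted.

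The 12 leading higher regions changed by 1.87 to 6.01 (log2) with adjusted p of 0.000441 to 0.00663. EC fell at 9 of them and HE rose at 6. HE was higher than EC at E9.5 at 11 of the 12, and at E8.5 HE was lower at 1.

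The first, chr7:133764688-133765548, moved in both populations. It had 12.2, 23.6, 23.9 and 16.4 CPM in E9.5 HE, against 3.1, 1.53, 3.53 and 2.11 CPM in E9.5 EC. It had 12.1, 1.3, 6.03 and 7.13 CPM in E8.5 HE, against 8.66, 17.4, 14.01 and 15.9 CPM in E8.5 EC. EC fell and HE rose without overlap of the days, with changes of -2.50 ± 0.50 in EC and 1.499 ± 0.44 in HE (log2, SE; adjusted p = 0.00045 and 0.0485). The difference changed by 4.00 ± 0.66 (adjusted p = 0.000441). The HE libraries were spread at E8.5, where library 2 was the lowest and library 1 overlapped EC.

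At chr8:36165054-36165776 the region closed in EC. It had 12.8, 13.99, 6.27 and 11.7 CPM in E9.5 HE, against 2.48, 1.144, 1.77 and 3.17 CPM in E9.5 EC. It had 20.5, 18.9, 32.02 and 25.2 CPM in E8.5 HE, against 42.6, 45.3, 48.5 and 44.3 CPM in E8.5 EC. Every E9.5 library was below every E8.5 library of the same population, and EC fell by 4.38 ± 0.47 (log2, SE; adjusted p = 4.1e-09). The HE change of -1.09 ± 0.39 did not pass (adjusted p = 0.122). HE was higher than EC at E9.5, by 2.40 ± 0.46 (adjusted p = 0.000968).

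EC was the only population that passed at 5 further leading regions. Of these, chr9:55954037-55954989 had 21.7 ± 5.18 CPM in E9.5 HE and 3.58 ± 1.21 CPM in E9.5 EC, against 9.77 ± 4.7 CPM in E8.5 HE and 13.2 ± 4.39 CPM in E8.5 EC (SD, n = 4 each), and EC fell by 1.84 ± 0.45 (log2, SE). At chr5:111964828-111965463 the means were 9.17 ± 3.06 CPM in E9.5 HE, 1.33 ± 0.942 CPM in E9.5 EC, 4.34 ± 2.82 CPM in E8.5 HE and 9.3 ± 4.35 CPM in E8.5 EC (SD, n = 4 each). chr13:116204062-116205155 had 25.97 ± 9.75 CPM in E9.5 HE and 5.00 ± 1.4 CPM in E9.5 EC, against 12.01 ± 5.06 CPM in E8.5 HE and 16.3 ± 8.62 CPM in E8.5 EC (SD, n = 4 each).

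The other regions passing in EC alone were broader and more open. At chr3:85690611-85692722, 2111 bp long, the means were 34.4 ± 5.48 CPM in E9.5 HE, 14.5 ± 3.15 CPM in E9.5 EC, 18.1 ± 3.73 CPM in E8.5 HE and 28.8 ± 3.82 CPM in E8.5 EC (SD, n = 4 each). EC fell by 0.96 ± 0.28 there (log2, SE), and the HE change of 0.93 ± 0.27 had an adjusted p of 0.0502. At chr2:53936206-53938421, 2215 bp long, EC had 17.9, 15.4, 15.9 and 25.3 CPM at E9.5 and 48.3, 40.1, 45.4 and 39.7 CPM at E8.5. HE had 29.2, 29.1, 70.1 and 40.7 CPM at E9.5 and 24.1, 31.3, 26.4 and 23.4 CPM at E8.5, with E9.5 library 3 above the others, and its days overlapped.

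HE alone rose at 3 of the 12. At chr17:46210684-46211303 it had 10.6, 21.7, 11.4 and 18.8 CPM in E9.5 HE, against 1.55, 1.144, 0 and 2.81 CPM in E9.5 EC. At E8.5 it had 4.82, 1.96, 0.565 and 1.1 CPM in HE, against 7.94, 6.1, 1.51 and 0.709 CPM in EC. E9.5 HE lay above all other groups without overlap, and HE rose by 3.20 ± 0.60 (log2, SE; adjusted p = 0.000973). Without E8.5 EC library 1, which was the highest of its group, the change of the difference no longer passed.

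A region of few counts, chr3:58858802-58859451, had 7.33 ± 2.02 CPM in E9.5 HE and 0.637 ± 0.313 CPM in E9.5 EC, against 1.07 ± 1.01 CPM in E8.5 HE and 1.99 ± 1.78 CPM in E8.5 EC (SD, n = 4 each). The summed counts were 115 in E9.5 HE, 10 in E9.5 EC, 14 in E8.5 HE and 20 in E8.5 EC. At chr3:127942807-127943475 the E9.5 HE libraries had 5.03, 5.95, 19.4 and 6.26 CPM, of which library 3 was far above the others, and E9.5 EC had 4.04, 3.05, 1.77 and 1.41 CPM. The E8.5 HE libraries had 0, 0, 0.942 and 0.366 CPM, below all E8.5 EC libraries at 4.33, 3.49, 4.17 and 3.54 CPM. Of the 12 it alone passed as lower in E8.5 HE than in E8.5 EC, with a difference of -2.93 ± 0.75 (log2, SE; adjusted p = 0.0274).

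The largest fitted changes among the 12 came at regions of few counts. chr5:103206744-103207436 changed by 6.01 ± 1.24 (log2, SE), with 48 counts in E9.5 HE and 4 in E9.5 EC, against 5 in E8.5 HE and 20 in E8.5 EC. chr11:104475039-104475877 changed by 5.90 (log2; edgeR adjusted p = 0.0031), with 112 counts in E9.5 HE and 6 in E9.5 EC, against 8 in E8.5 HE and 19 in E8.5 EC. In both, HE rose and EC fell over the days, and E8.5 EC library 2 supplied the highest of the E8.5 EC values at the second, 1.44, 6.97, 1.89 and 1.42 CPM.

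Where neither population passed over the days, the leading higher regions were chr2:167659031-167659430, chr3:29636477-29638032 and chr3:8766011-8768463. The first changed by 3.91 ± 0.99 (log2, SE), the second by 3.31 ± 0.84 and the last by 1.40 ± 0.36. At the last, chr3:8766011-8768463, the populations were apart at E9.5, with 52.5 ± 3.62 CPM in HE and 17.3 ± 4.95 CPM in EC, and overlapped at E8.5, with 31.1 ± 7.9 CPM in HE and 28.9 ± 6.13 CPM in EC (SD, n = 4 each). The 3 calls were lost on leaving out any of 5, 5 and 9 of the 16 libraries, singly.

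The lower regions were wider and more open than the rest. Their median width was 954 bp, against 688 bp for the higher regions and 548 bp for all tested, and their median level of 28.4 CPM lay above the 5.50 CPM of all tested. Of 10 equal bins by level, the lowest held 0 lower calls, and the top 2 held 276 and 285. The lowest bin held 32 of the higher calls and the highest bin 4. The lower calls made up 2.16% of tested regions on chromosome 13 (67 of 3108), the highest share, and 0.598% on chromosome 17 (16 of 2674), the lowest apart from chromosome Y, where 0 of 9 regions tested were called. These shares describe the calls.

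Called regions lay near each other in 24 places, where at least 3 called regions of the same direction followed with gaps of at most 50 kb. Of these, 23 were lower and 1 was higher, and none held a call of the other direction. Higher calls made up 0.282% and lower calls 1.21% of all regions tested, so that absence says little about these places. Each place was built from its calls, so its share of calls and their sign follow from that choice. The counts of signs given below include the calls. Among all regions tested, 48.8% had a negative change and 51.2% a positive one. A pair of places held 6 calls each, the most of any. The first, chr2:84969157-85018779, spanned 49.6 kb, with 6 calls among 12 regions tested, of which 10 had a negative change. Summed over its called regions, it had 301.6 ± 43.9 CPM in E9.5 HE and 916 ± 64.5 CPM in E9.5 EC, against 542 ± 22.4 CPM in E8.5 HE and 436 ± 102 CPM in E8.5 EC (SD, n = 4 each). EC rose at 4 of the 6 and HE fell at 1. The 6 calls dropped to 2 without E8.5 EC library 2 or E9.5 HE library 4, and to 3 without E8.5 EC library 1 or E8.5 HE library 2.

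The most open of the 6 was chr2:85003169-85004933. It had 80.9, 99.4, 102 and 75.2 CPM in E9.5 HE, against 340.4, 305, 423 and 382 CPM in E9.5 EC. It had 168, 181, 184 and 149 CPM in E8.5 HE, against 99.6, 90.6, 194 and 131 CPM in E8.5 EC. E9.5 EC stood above every other group, E8.5 HE and EC overlapped through E8.5 EC library 3, and EC rose by 1.48 ± 0.33 (log2, SE; adjusted p = 0.00167). chr2:84974735-84980445 in the same place, 5710 bp long, was the region where HE alone fell, with 58.6 ± 9.69 CPM in E9.5 HE and 139 ± 7.42 CPM in E9.5 EC, against 104.6 ± 13.7 CPM in E8.5 HE and 99.3 ± 19.9 CPM in E8.5 EC (SD, n = 4 each).

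The other one, chr15:58806782-58921983, held 6 calls among 15 regions tested, and all 15 had a negative change. Its called regions summed to 158.7 ± 15.2 CPM in E9.5 HE and 349 ± 35.5 CPM in E9.5 EC, against 222 ± 32.2 CPM in E8.5 HE and 145.9 ± 28.2 CPM in E8.5 EC (SD, n = 4 each). EC rose at 4 of the 6. Only chr15:58806782-58808602 and chr15:58817816-58818654 kept their call on leaving out any single library of the 16, with changes of -1.86 ± 0.40 and -2.23 ± 0.49 (log2, SE).

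In chr13:111324242-111353701, 5 of 7 regions tested were called, and EC rose at all 5 while HE passed at none over the days. The called regions summed to 364 ± 28.8 CPM in E9.5 HE and 602 ± 40.2 CPM in E9.5 EC, against 372 ± 41.6 CPM in E8.5 HE and 160.8 ± 32.6 CPM in E8.5 EC (SD, n = 4 each). The 5 calls dropped to 3 without E8.5 EC library 1 or 2 or E8.5 HE library 2. The HE sums of the days differed by less than 1 SD, and the EC sums by more. chr13:111324242-111325271 had 74.2, 82.2, 55.9 and 67.3 CPM in E9.5 HE, against 125, 110.4, 128 and 118 CPM in E9.5 EC. It had 86.2, 106, 88.2 and 79.7 CPM in E8.5 HE, against 26.7, 34.9, 35.97 and 37.6 CPM in E8.5 EC. HE lay between the EC levels of the days, and EC rose by 1.82 ± 0.30 (log2, SE).

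Another place, chr13:21946801-22029662, had 5 calls among 16 regions tested, all 16 with a negative change. The 5 calls dropped to 1 without E8.5 EC library 2. They dropped to 2 without E8.5 EC library 1, E8.5 HE library 2 or 3, E9.5 EC library 2 or E9.5 HE library 3 or 4, and to 3 without E8.5 HE library 1 or E9.5 EC library 1. Its called regions summed to 283 ± 45.7 CPM in E9.5 HE and 513 ± 37.5 CPM in E9.5 EC, against 434 ± 27.8 CPM in E8.5 HE and 285 ± 82.1 CPM in E8.5 EC (SD, n = 4 each). E9.5 HE and E8.5 EC differed by less than 1 SD in this sum, and the other two stood above them. In chr9:32376765-32421344, 4 of 9 regions were called (2 on leaving out E8.5 HE library 1 or 4, E9.5 EC library 2 or E9.5 HE library 1 or 4, and 1 on leaving out E8.5 EC library 1), with sums of 102 ± 10.4 CPM in E9.5 HE and 215 ± 20.6 CPM in E9.5 EC, against 154 ± 16.9 CPM in E8.5 HE and 83.7 ± 23.2 CPM in E8.5 EC (SD, n = 4 each).

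The single place with higher calls, chr11:11557044-11608049, spanned 51.0 kb and held 4 calls among 5 regions tested, all 5 with a positive change. It kept 0 calls without E8.5 HE library 3 or 4, E9.5 EC library 2 or E9.5 HE library 4, and 1 call without E8.5 EC library 1 or 2 or E9.5 EC library 4. It kept 2 without E8.5 EC library 4, E8.5 HE library 1 or 2 or E9.5 HE library 1, and 3 or 4 without any one of the other libraries. chr11:11557044-11557900 had 8.91, 9.65, 9.12 and 17.2 CPM in E9.5 HE, against 3.1, 1.144, 3.53 and 5.28 CPM in E9.5 EC. It had 1.81, 7.83, 1.88 and 1.46 CPM in E8.5 HE, against 10.1, 7.84, 2.27 and 7.44 CPM in E8.5 EC. HE rose there by 2.01 ± 0.53 (log2, SE; adjusted p = 0.025), with E8.5 HE library 2 apart from the other 3 of its group. At chr11:11584766-11586730 EC fell by 1.47 ± 0.34 (log2, SE), with 16.97 ± 3.71 CPM in E9.5 HE and 9.59 ± 1.44 CPM in E9.5 EC, against 14.1 ± 5.38 CPM in E8.5 HE and 27.2 ± 4.07 CPM in E8.5 EC (SD, n = 4 each). The other two, chr11:11591762-11592058 and chr11:11607518-11608049, had no count in E8.5 HE, so their fitted change depends on the prior count and is not given. They held 18 and 36 counts in E9.5 HE and 1 and 10 in E9.5 EC, against 7 and 18 in E8.5 EC.

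The E10.5 libraries did not enter the contrast that chose the regions, but they shared its filter, scaling and estimate of spread, so the counts at E10.5 are not independent of the choice. At E10.5 HE was lower than EC at 329 of the 815 lower regions (40.4%, against 1.57% of all tested). The difference was negative at 800 of the 815 (98.16%, against 49.03% of all tested), with a median of -1.11. HE was higher than EC at 43 of the 189 higher regions (22.8%, against 0.717%). The difference was positive at 170 of the 189 (89.95%, against 50.97%), with a median of 1.15. No lower region passed as higher and no higher region as lower by edgeR or by DESeq2. By edgeR only 0.717% of all regions tested passed as higher and 1.57% as lower, so that absence alone says little. At an unadjusted p of 0.05, 1 lower region was higher at E10.5 and 0 higher regions were lower. The shares of all regions tested at that unadjusted p were not computed, so how unusual these counts are was not tested.

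The E10.5 HE libraries were of 2 kinds at the lower regions. Their median levels there were 6.45 CPM in library 1 and 8.06 CPM in library 4, against 17.7 CPM in library 2 and 18.7 CPM in library 3, and libraries 1 and 4 were the shallower at 1215458 and 1101787 counts. Without libraries 1 and 4, 31 of the 815 passed as lower (3.8%, against 0.112% of all tested), with a median of -0.80. Without libraries 2 and 3, 531 passed (65.2%, against 5.04%), with a median of -1.87. For the higher regions the counts were 24 (12.7%, against 0.401%) and 32 (16.9%, against 0.923%), with medians of 1.08 and 1.28. Both settings were chosen after seeing the data.

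**Figure D4:**
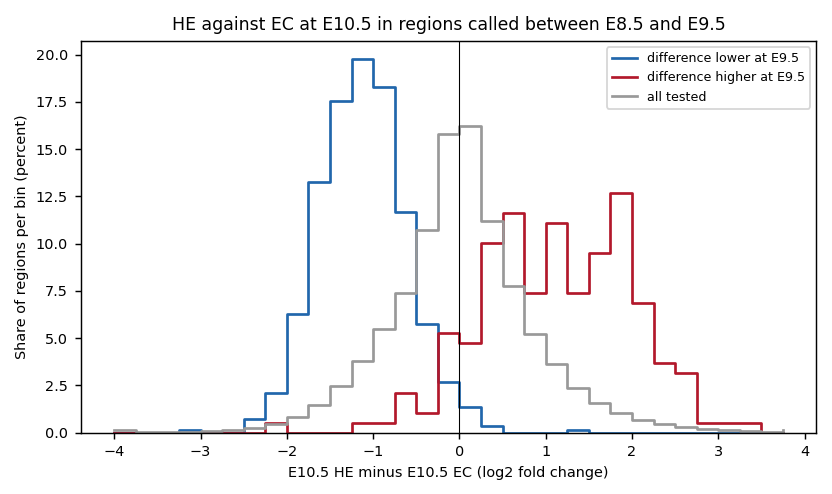
Share of regions (vertical, percent per bin) by the log2 fold change of E10.5 HE minus E10.5 EC (horizontal) for the 815 lower regions, the 189 higher regions and all 67108 tested. The lower regions centre on -1.11 and the higher regions on 1.15, and all regions tested on 0.01.

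Over the 9 groups the 815 lower regions were most open in E9.5 EC. The median level per library was 19.99 ± 2.58 CPM in E9.5 HE and 43.1 ± 2.30 CPM in E9.5 EC, against 31.1 ± 1.79 CPM in E8.5 HE and 14.5 ± 2.25 CPM in E8.5 EC (SD, n = 4 each). At E10.5 it was 12.7 ± 6.37 CPM in HE and 31.1 ± 7.28 CPM in EC (SD, n = 4 each). The blood-forming groups had lower means, but each overlapped E10.5 HE in range, where libraries 1 and 4 had 6.45 and 8.06 CPM. E9.5 pro-HSC/HPC had 10.52 ± 0.32 CPM (SD, n = 3). E10.5 pre-HSC I had 10.6 ± 2.28 CPM (SD, n = 3) and E10.5 pre-HSC II 6.15 ± 0.86 CPM (SD, n = 4). E8.5 EC overlapped with the E10.5 HE and pre-HSC I libraries, and E9.5 EC stood above the other groups of the 4 compared without overlap. The regions were chosen on those 4 groups, so the order among the 4 follows in part from the choice.

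The 189 higher regions ran the other way. Their median level was 8.42 ± 0.97 CPM in E9.5 HE and 2.03 ± 0.24 CPM in E9.5 EC, against 3.60 ± 0.26 CPM in E8.5 HE and 7.91 ± 1.37 CPM in E8.5 EC (SD, n = 4 each). At E10.5 HE had 7.89 ± 1.38 CPM and EC 3.37 ± 1.01 CPM (SD, n = 4 each). The blood-forming groups held 10.8 ± 2.03 CPM in E9.5 pro-HSC/HPC (SD, n = 3). E10.5 pre-HSC I had 9.37 ± 0.68 CPM (SD, n = 3) and E10.5 pre-HSC II 8.56 ± 1.28 CPM (SD, n = 4). E8.5 EC and E9.5 HE overlapped in level, and E9.5 EC and E8.5 HE were the low groups of the 4. Here too the order among the 4 follows in part from the choice of regions.

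**Figure D5:**
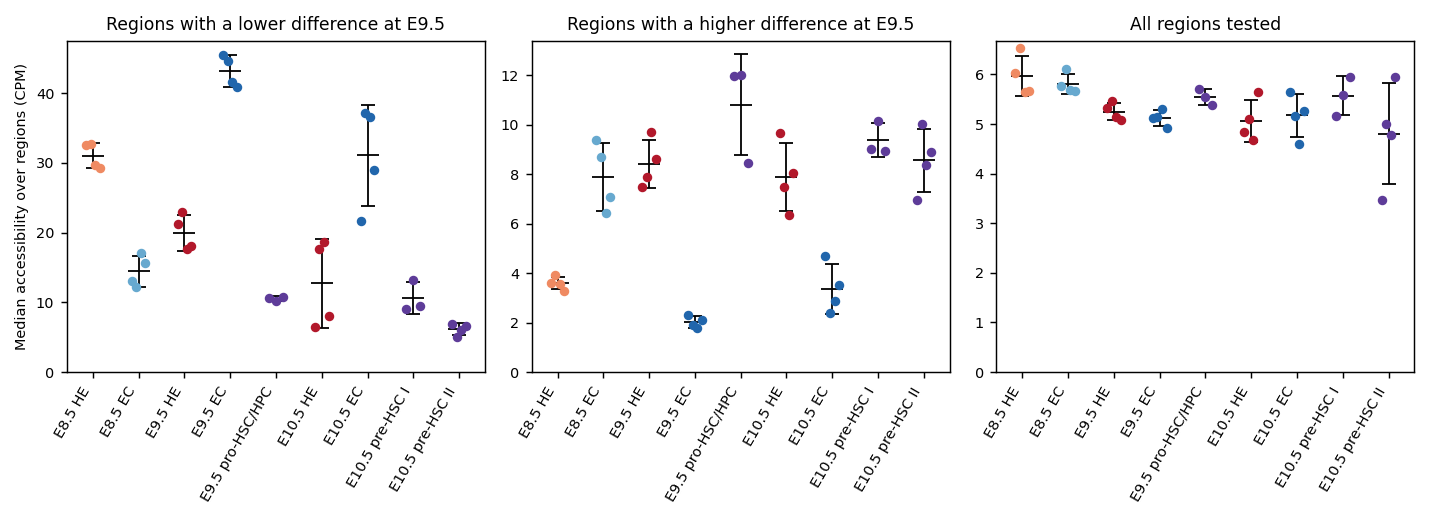
Median accessibility per library in CPM (points), with the mean and SD of each group (bars), over the 815 lower regions, the 189 higher regions and all 67108 regions tested, for the 9 groups in order of day. Over the lower regions E9.5 EC is the highest group at 43.1 CPM and over the higher regions it is the lowest at 2.03 CPM, while the medians over all regions lie between 4.80 and 5.97 CPM. The lower and higher regions were chosen on the HE and EC libraries of E8.5 and E9.5.

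At single leading regions the later groups differed. chr2:135518113-135519379 had 27.5 ± 10.48 CPM in E10.5 HE and 80.96 ± 14.2 CPM in E10.5 EC (SD, n = 4 each), a difference of -1.51 ± 0.25 (log2, SE; adjusted p = 0.00037). chr5:149976189-149977107 had 15.4 ± 8.77 CPM in E10.5 HE and 64.98 ± 20.8 CPM in E10.5 EC, a difference of -1.995 ± 0.33 (adjusted p = 0.000317). At chr9:8558439-8559379 the difference of -0.79 ± 0.29 did not pass (adjusted p = 0.16). Among the higher regions, chr7:133764688-133765548 had 20.2 ± 9.97 CPM in E10.5 HE and 3.88 ± 2.5 CPM in E10.5 EC (SD, n = 4 each), a difference of 2.50 ± 0.46 (log2, SE; adjusted p = 0.00106), and chr5:103206744-103207436 had 2.02 ± 0.628 and 2.29 ± 2.58 CPM, a difference of -0.02 ± 0.81 (adjusted p = 0.997).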

How the data were processed

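ATAC-seq libraries were made from pools of 1500 cells with 13 PCR cycles, per the labels' protocols. A table of counts per region, whole numbers without normalization, was deposited for all 35 libraries, and every column matched a library. Among counts of 10 to 49, even numbers made up from 54.1% in E9.5 HE library 1 to 78.2% in E9.5 EC library 3. The cause of this excess of even counts was not tested. The submitters' processing notes name MACS2 2.0.1, DiffBind 1.14.6, Bowtie 1.0.0, bedtools 2.17.0, Trim Galore 0.3.1, deepTools and SAMtools and build mm9, with no role or order. The sources used here do not state how duplicates were treated or whether reads were shifted to the transposase's position. The reads carry no molecular identifiers, so a count is not a count of molecules, and whether the first base of a position is 0 or 1 is not stated.

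Counts were tested with edgeR 4.0.16 (R 4.3.3): filterByExpr by group, which removed 8910 regions, TMM scaling, glmQLFit over all 9 groups and glmQLFTest, two-sided, with Benjamini-Hochberg adjustment over 67108 regions and a threshold of 0.05. Libraries 2 and 3 of E10.5 pre-HSC I agree within sampling noise and entered as their mean, giving 34 samples and 25 residual degrees of freedom (common dispersion 0.147). Standard errors are the log2 fold change divided by the root of the F statistic. CPM uses TMM-scaled library sizes. The filter, the scaling and the shared spread each move the number of calls.

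Regions and lists were chosen with earlier results of these data known. The text names the 12 called regions of smallest p in each direction (absolute log2 change of at least 1), the 3 of smallest p in each class by which population passed over the days, and runs of at least 3 called regions with gaps of at most 50 kb, the 5 with most calls in each direction. Alternatives were other scalings, DESeq2 1.42.0, no filter, the 4 groups alone, a replicate block, halved counts and each library left out. Thinning, the chromosome X libraries and the pairs of libraries were added after seeing the data. Figures were drawn with matplotlib 3.10.9 in Python 3.11.15.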

Additional observations from a re-analysis of the deposited data

Results flagged for a closer look

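The change of the HE and EC difference between E9.5 and E8.5 was itself tested and passed at 815 regions in the lower direction and 189 in the higher.

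Among the 96 groups of 4 libraries at the 24 leading regions, 5 held a library whose gap to the nearest of the others took up most of the group's range (Dixon's criterion), and chance gives about 1 in 20. At chr9:8558439-8559379 E9.5 EC library 3 was high at 106 CPM. At chr10:74826194-74828242 E9.5 HE library 3 was low at 98.7 CPM and E8.5 EC library 4 was high at 19.1 CPM. At chr11:104475039-104475877 E8.5 EC library 2 was high at 6.97 CPM. At chr3:127942807-127943475 E9.5 HE library 3 was high at 19.4 CPM. Leaving out any of these libraries singly kept the call at its region.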

How the results depend on the processing

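Against 1004 calls (815 lower, 189 higher), leaving out 1 of the 16 libraries gave 437 to 1090 calls, 350 to 919 lower and 81 to 171 higher. DESeq2 gave 2553 (2100 and 453), the 4 groups fitted alone 4287 (3262 and 1025), and halved counts 2488 (2012 and 476). Thinning every library to the shallowest of the 16 gave 539 lower calls. Without the 3 libraries high in the chromosome X region there were 44 (38 and 6). Without E8.5 libraries 1 and 2 of both populations there were 6 (3 and 3), and without E8.5 libraries 3 and 4 274 (238 and 36). Without E9.5 libraries 1 and 2 there were 20 (16 and 4), and without E9.5 libraries 3 and 4 there were 3 (3 and 0). In the last setting 1988 of 70533 regions tested were higher at an unadjusted edgeR p of 0.05, against 3429 of 67108 as reported. Leaving out these libraries keeps 2 or 3 in the groups concerned, so fewer samples were tested. Without E10.5 HE libraries 1 and 4 there were 2044 (1698 and 346), and without 2 and 3 there were 1796 (1515 and 281). In these the number of regions tested, the scaling and the shared spread changed together. The cause of the shifts was not tested.

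Same-numbered HE and EC libraries of a day deviated together only weakly (correlations of 0.03 to 0.17 over 8 pairs, 1 above 0.1, and 5 best with their own number). These correlations run over all regions tested, many of them of few counts, so they do not settle whether the numbers pair the libraries. With a replicate block within each day, the 4 groups alone gave 4898 calls (3763 and 1135), and the block over all groups gave 1277. EC rose at 75.4% of the lower calls with the block within each day, against 74.9% in the 4 groups without it, and HE fell at 31.2% against 26.9%. With RLE size factors HE fell at 241 of 1098 lower calls (21.9%).

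Scaling by total counts moved the median of all regions by 0.16 (log2) and gave 570 lower and 223 higher calls, 71.9% lower against 81.2%. No named region changed sign under any setting run. The named regions were chosen by their change in these same libraries, which every setting reuses in whole or in part. Their kept sign is therefore a description. Over the 65 named regions, 492 of the repeats lost the call and 1707 kept it. The losses were uneven, from 0 to 15 of the 16 repeats that left out 1 library, by region. Thinning gave 135 higher calls, and 33 of the 189 higher regions had a group with 3 counts or fewer.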
